A study of Mus musculus with 167 samples.

Results

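The nuclear respiratory chain genes examined here were the genes whose symbol starts with Nduf, Uqcr, Sdh, Cox or Atp5, together with Cycs, the gene for cytochrome c. Symbols ending in -ps, which mark pseudogenes, were left out. Of 112 such genes, 100 were members because they had a TPM of 1 or more in at least 10% of the cells kept, out of 38924 genes in the table. TPM gives the abundance of each gene's transcripts, per length, scaled to the same total of 1000000 in every cell. The members comprised 45 genes of complex I, 7 of complex II, 8 of complex III, 23 of complex IV, 16 of complex V and Cycs. Ndufa4, named after complex I, was counted with complex IV, where its product belongs. One member, Ndufb4c, is annotated as a processed pseudogene although its symbol carries no -ps, and the other 99 are annotated as protein coding.

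The cells were lymphoid-primed multipotent progenitors (LMPPs), marrow progenitors of lymphoid and myeloid cells, from wild-type female C57Bl/6J mice aged 4 or 14 months. They had been sorted for surface Sca-1, c-Kit, CD34 and abundant Flt3 and for the absence of CD150 and of mature lineage markers, and each was captured and amplified singly on a Fluidigm C1 chip. Each age has 84 columns, 1 for each cell, while 83 labelled cells are of 14 months and 84 of 4 months. Columns of 14 months are numbered as set 4 (45 columns) or set 5 (39 columns), and no source used here says what the number means. Columns of 4 months carry none, so age and capture cannot be told apart. Neither the number of mice nor the mouse behind a cell is given, so each age is 1 sample and no test between ages was possible. All values below describe these cells. Cells were kept when at least 1000 genes reached a TPM of 1, which left 64 cells of 4 months, 29 of set 4 and 37 of set 5.

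The respiratory chain passes electrons from nutrients to oxygen across the inner mitochondrial membrane. Complex I takes them from NADH and complex II from succinate, ubiquinone carries them to complex III, cytochrome c carries them on to complex IV, and complex IV hands them to oxygen. The proton gradient built on the way drives complex V, the ATP synthase. Mitochondrial DNA encodes only 13 of the proteins, and the nucleus encodes the rest, including the whole of complex II. Blood stem cells are known for a low use of this pathway and their dividing progeny for a higher one.

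Nuclear respiratory chain genes are known targets of the transcription factors NRF1 and the ETS family member GABP, so promoter windows that hold such letters are shown for Cycs, Sdhd, Ndufb6 and Ndufs3, which are among the 8 members at least 1 log2 unit apart between the ages, and for Cox6a1, one of the most abundant members. Promoters of 300 bases, 250 before and 50 after the RefSeq start (build GRCm38.p6), matched 83 of the 100 members, some with more than 1 promoter. No window of this kind was found for Ndufa5, Ndufc1, Cox7c and Sdhaf4, the others of the 8, some of which may lack a matched promoter. A link between these letters and the differences was not tested. Each window below is 60 bases long, reads 5′ to 3′ on the gene's strand and lies before the start of the gene. Capitals mark the NRF1-type letters GCATGCGC or the ETS-type letters CCGGAAG, the latter on the opposite strand in the Sdhd and Ndufb6 windows. The Cycs window is chr6:50566596-50566655 (minus strand), with its motif beginning 60 bases before the start. The Cox6a1 window is chr5:115349085-115349144 (minus strand), with the motif 160 bases before the start. The Sdhd window is chr9:50603862-50603921 (minus strand), with the motif 46 bases before the start, and the Ndufb6 window is chr4:40279612-40279671 (minus strand), with the motif 232 bases before it. The Ndufs3 window is chr2:90904722-90904781 (minus strand), with the motif 27 bases before the start.
Cycs: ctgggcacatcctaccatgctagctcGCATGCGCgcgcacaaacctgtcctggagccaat
Cox6a1: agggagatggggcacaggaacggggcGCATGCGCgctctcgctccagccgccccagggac
Sdhd: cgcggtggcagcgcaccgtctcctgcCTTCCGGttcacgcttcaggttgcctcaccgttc
Ndufb6: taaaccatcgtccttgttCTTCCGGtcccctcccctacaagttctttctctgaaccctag
Ndufs3: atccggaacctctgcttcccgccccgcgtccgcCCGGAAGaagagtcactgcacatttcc

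Searched on both strands, the NRF1-type letters stood in 13.5% of 89 member promoters, against 2.71% of all 32851 promoters and 5.79% of the 8719 promoters of measured genes. The ETS-type letters stood in 29.2% of member promoters, 8.86% of all and 20.5% of those of measured genes. A YY1-type motif, AAGATGGCG, stood in 10.1% of member promoters, 1.40% of all and 3.51% of those of measured genes. The Sp1-type letters GGGCGGG stood in 38.2% of member promoters, below the 47.0% of those of measured genes. CCAAT stood in 41.6% against 38.3%, and TATAAA in 8.99% against 6.88%. The motifs could overlap each other. By complex, the ETS-type letters were in 6 of 39 genes of complex I, 4 of 6 of complex II, 2 of 5 of complex III, 8 of 18 of complex IV and 5 of 14 of complex V. A match of letters is a description and shows no binding in these cells.

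The members were among the more abundant transcripts of the LMPPs. Their median percentile by mean TPM was 92.8 among the 9268 measured genes, those at a TPM of 1 or more in at least 10% of the kept cells, and 81 of the 100 members lay in the top 25%. Over the members, the median of the mean levels was 168 TPM in the younger cells, 184 in set 4 and 202 in set 5. The highest levels were those of Ndufa4 and Cox6a1 of complex IV, Atp5b, which encodes the catalytic beta subunit of complex V, and Cox4i1, a subunit of complex IV. Ndufa4 had a mean of 1358 TPM in the younger cells, 987 TPM in set 4 and 1149 TPM in set 5. Cox6a1 had means of 931, 952 and 1200 TPM in the same order. Cox4i1 was detected in 59 of 64 cells at 4 months (92.2%, exact 95% interval 82.7 to 97.4) and in every cell of set 4 and of set 5, with medians of 796, 762 and 773 TPM.

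**Figure D1:**
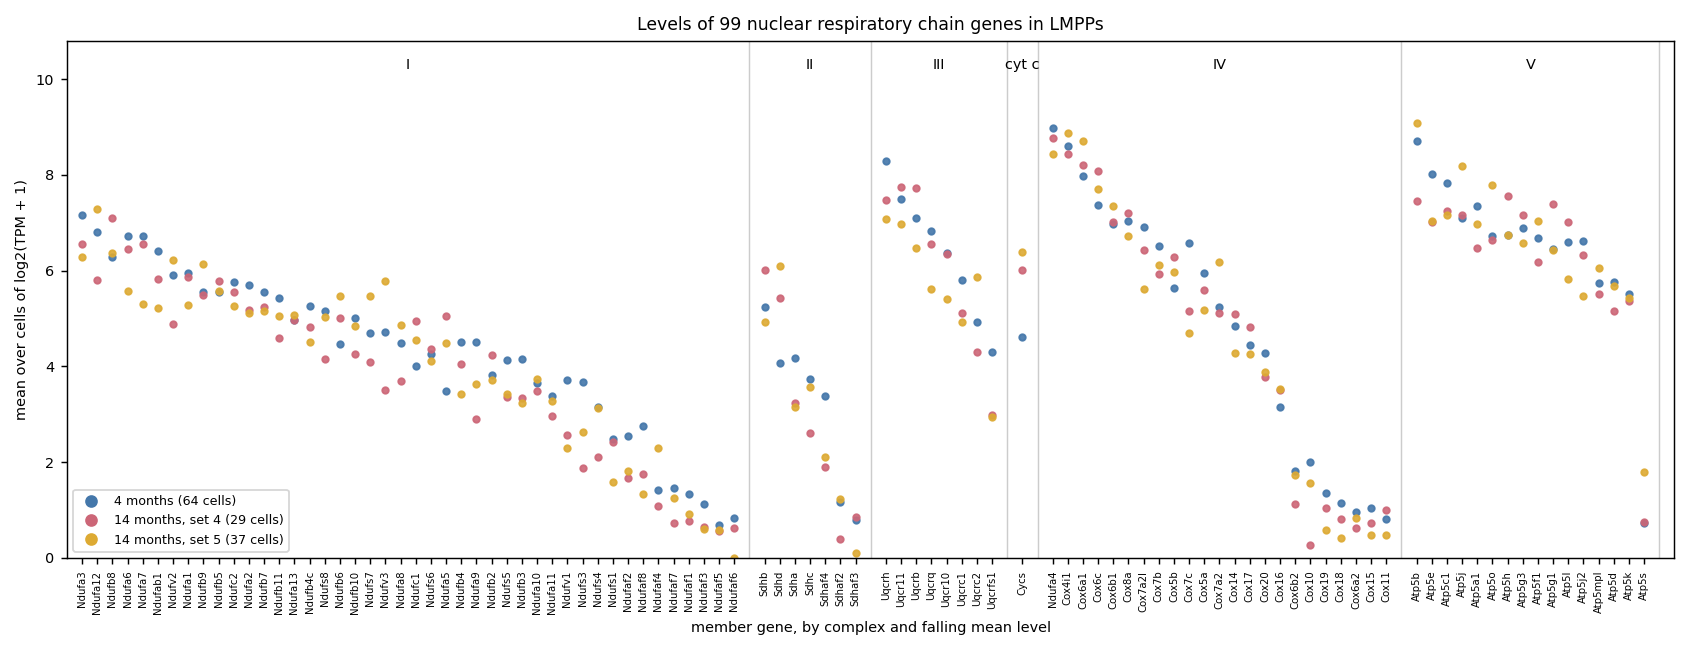
Mean over cells of log2(TPM + 1) (vertical axis) of 99 of the 100 members (horizontal axis), grouped by complex and ordered by falling mean level over the kept cells. Points are the 64 cells of 4 months, the 29 of set 4 and the 37 of set 5, and most assembly factors stand at the low end of their complex, while Ndufa4, Cox4i1, Cox6a1 and Atp5b stand highest.

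Subunits of 1 complex differed widely in level. The 37 genes counted as complex I subunits include the pseudogene Ndufb4c. Among them the highest mean was 11.8 times the lowest at 4 months, 19.0 times in set 4 and 13.3 times in set 5. At 4 months these were Ndufa3, a supernumerary subunit, at 503 TPM, and Ndufs1, the largest core subunit, at 42.8 TPM. Among the 8 member genes of complex III the ratio was 7.31, 21.1 and 9.55. Of these 8, Uqcrfs1, the Rieske iron-sulfur subunit, was lowest each time at 92.7, 38.6 and 57.3 TPM, and Uqcrh or Uqcr11 was highest. Cyc1, a complex III subunit whose name falls outside the pattern, is not among the 8 and was at 57.1, 101 and 39.6 TPM. The 4 subunits of complex II had ratios of 2.32, 8.80 and 5.19, and the 15 subunits of complex V had ratios of 3.80, 3.72 and 7.78. Complex IV had ratios of 64.0, 109 and 65.5. Its lowest subunit was Cox6a2, the form known from heart and skeletal muscle, at 21.2, 9.06 and 18.3 TPM. Cox6b2 was next lowest, at 29.6, 35.7 and 18.8 TPM.

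Assembly factors, which help to build a complex without being part of it, were low. The 20 factors of complexes I, II and IV had a median mean level of 25.6, 21.3 and 20.3 TPM at 4 months and in sets 4 and 5, against 221, 246 and 247 TPM for the other 80 members. The median factor was detected in 31.2%, 20.7% and 21.6% of cells, and the median of the other members in 78.1%, 75.9% and 75.7%. Ndufs1 was the core subunit of complex I found in the fewest of the 130 kept cells together (40.0%), with 43.8%, 48.3% and 27.0% in the 3 groups; in set 4 alone Ndufs3 was found in fewer (37.9%). The members were short genes: the median coding transcript had 721 bases, against 2032 over the 8354 measured genes with one. Across 99 members, shorter genes had higher TPM (Spearman's rho -0.41 across genes, which are not replicates, against -0.26 over all these measured genes).

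Where complex IV has forms for different tissues, the widespread form stood at the higher level. Cox6a1 reached 931 TPM at 4 months against 21.2 for Cox6a2, and Cox6b1 reached 469 against 29.6 for Cox6b2, a form known from testis. These low forms were still detected, Cox6b2 in 39 of 130 cells (30.0%) and Cox6a2 in 20 (15.4%), and both are members. Cox4i2 was detected in 7 of 130 kept cells (5.38%) and Cox7a1, a heart and muscle form, in 3 (2.31%), so neither was a member. Cox8b, Cox8c, Cox7b2 and Ndufa4l2 were listed at 0 in every kept cell, which allows a share of cells of up to 2.31%. The processed pseudogenes Cox6c2, Ndufa11b and Ndufs6b were also listed at 0; Cox6c2 and Ndufs6b are near-identical to Cox6c and Ndufs6, so their reads cannot be placed with certainty and no limit is given. The other non-members were Cox20b, a processed pseudogene, in 1 cell, Atp5g2, in 4 cells, and Sdhaf1, in 12 cells (9.23%), just under the 10% required. Just inside it were Ndufaf6, in 15 cells (11.5%), and Ndufaf5, in 19 cells (14.6%). Of the genes for the c ring, the rotor of complex V, Atp5g1 (417, 591 and 524 TPM) and Atp5g3 (427, 493 and 576 TPM) were both abundant, while Atp5g2 was found in those 4 cells only.

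Per cell, the share of transcripts held by the members overlapped between the ages. The members held a median of 2.78% of nuclear TPM at 4 months (quartiles 2.34 and 3.32), 3.12% in set 4 (2.48 and 3.70) and 2.87% in set 5 (2.43 and 3.67), with ranges of 0.0228 to 4.49, 0.514 to 4.47 and 1.53 to 4.93. The groups overlapped over most of their range. Of all TPM, mitochondrial transcripts included, the members held 2.41%, 2.45% and 2.30%. The median share of mitochondrial transcripts was 12.4% in the younger cells, 20.5% in set 4 and 15.8% in set 5. The ratio of member TPM to that of the 13 mitochondrially encoded chain genes had medians of 0.244, 0.128 and 0.136.

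**Figure D2:**
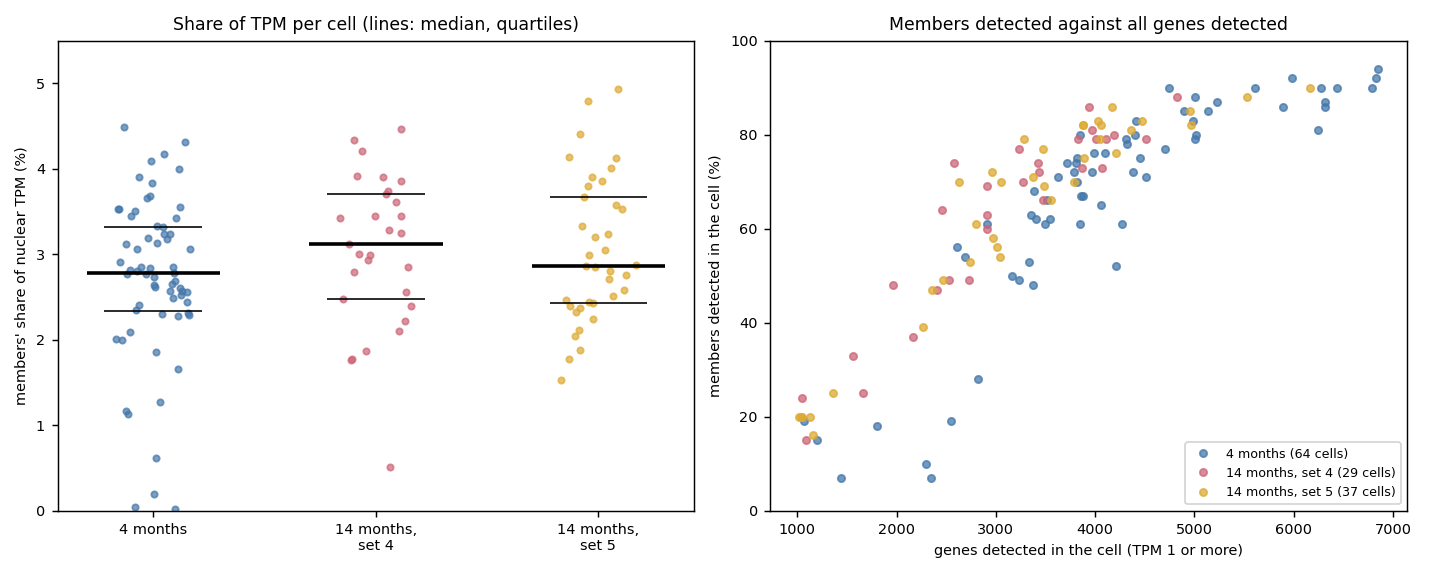
Left: share of nuclear TPM held by the 100 members in each cell (vertical axis, percent) for the 3 groups, with lines at the median (2.78, 3.12 and 2.87) and quartiles. Right: share of the members detected (vertical axis, percent) against the number of genes detected (horizontal axis), 1 point a cell, with the members detected climbing with the genes detected in every group.

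The median cell detected 72% of the members at 4 months and 70% in each 14-month set. Over all measured genes the corresponding shares were 39.0%, 32.7% and 34.5%, and over measured genes in the top 25% by level, which are nearer to the members, 67.8%, 65.4% and 65.5%. The number of genes detected per cell differed between the ages, with medians of 3975 at 4 months, 3230 in set 4 and 3376 in set 5, and members detected followed it closely (rho across cells 0.92, 0.91 and 0.93, where both counts share the depth of the cell). All 8 genes of complex III were detected together in 33 of 64 cells at 4 months, 13 of 29 in set 4 and 11 of 37 in set 5. None of the 7 genes of complex II was detected in 3, 0 and 3 cells. A group of 16 cells was short of genes that nearly all others had: they held under 90% of 307 nuclear non-member genes detected in at least 90% of the kept cells, and lay at 42.7% to 83.4%. There were 7 such cells at 4 months, 3 in set 4 and 6 in set 5, and their medians of members detected were 15%, 24% and 20%.

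The labelled cell type was checked against markers. Of the gate markers, Flt3 was detected in 100%, 86.2% and 97.3% of cells, Cd34 in 89.1%, 93.1% and 83.8%, in the order 4 months, set 4, set 5. The gate marker Ly6a (the Sca-1 gene) was found in 39.1%, 34.5% and 40.5% of cells, and Kit was found in 67.2%, 44.8% and 59.5%. Slamf1, which encodes CD150, was at 0 throughout, as were Cd3e and Ly6g of the lineages removed, Gata1 of the erythroid line, Pax5 of B cells, and Ncr1 of NK cells. Other markers of these lists were present: Itgam, which encodes CD11b, in 68.8%, 24.1% and 27.0% of cells, Ly6c2 in 0%, 10.3% and 13.5%, Cd79b of B cells in 39.1%, 27.6% and 21.6%, and Vwf, on the megakaryocyte list, in 76.6%, 44.8% and 48.6%. The 4 globin genes were each in at most 16.2% of the cells of a group. The 8 neutrophil and monocyte markers, 3 of them at 0 throughout, had a median sum of 193 TPM in the younger cells, 62.5 in set 4 and 94.2 in set 5. The highest cell, in set 5, had 364930 TPM, and its leading gene was Camp. The 3 NK cell markers had median sums of 19.7, 211 and 156 TPM, with Ncr1 at 0. These sums were mostly Nkg7, found in 54.7%, 72.4% and 73.0% of cells, against 1.56%, 3.45% and 0% for Klrb1c. The part of these markers in the results was not tested. Mitochondrial transcripts reached 69.1%, 80.6% and 91.7% of TPM in the most extreme cells. Without cells in which mitochondrial transcripts exceeded 50% or 1 gene exceeded 10% of TPM, 113 cells were left; the members' median difference between the ages, given next, was then 0.03 instead of 0.02, with 3 members lower and 11 instead of 5 higher by 1 log2 unit, where 5.20% of all measured genes were lower and 3.93% higher. Without the 16 cells short of nearly ubiquitous genes it was -0.0084, with 3 lower and 4 higher (5.35% and 3.20% of all measured genes).

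The question the ages pose is whether the members differed between 4 and 14 months. For each gene the difference is the mean log2(TPM + 1) at 14 months minus that at 4 months, less the difference of the median measured gene, which was -0.35. That subtraction matters, since 76.7% of measured genes were lower at 14 months before it. Relative to that gene, the 100 members had a median difference of 0.02, and 49 lay below it and 51 above. The corresponding medians were 0.10 in set 4 and -0.00 in set 5, each against the same 64 cells of 4 months.

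By complex, the pooled median differences ran from -0.31 to 0.27. Complex I had a median of -0.07, with 26 of 45 genes below the median gene, complex II one of -0.00, with 4 of 7 below, and complex IV one of 0.13, with 10 of 23 below. The 8 genes of complex III had a median of -0.31, the lowest of the complexes, but the sign turned with columns of 2000 or more genes (0.10) and with ratios of mean TPM (0.25). The negative value came from set 5 (-0.58, with 7 of 8 genes below) rather than set 4 (-0.03, with 4 below), and the 2 sets of the same age differed from each other by a median of -0.69. Complex V had a median of 0.27, with 12 of 16 genes above, and 0.23 in set 4 and 0.28 in set 5, though it was -0.093 when medians over cells replaced means. Within complex V, 7 of the 8 genes of the stalk and membrane part lay above (median 0.38, with 0.31 in set 4 and 0.48 in set 5). The 5 genes of the catalytic F1 head had a median of -0.26, with 3 below and 2 above. That low value came mostly from set 4 (-0.47, with 5 below), while set 5 was at -0.05, with 3 below. Of the 20 assembly factors 13 lay below, with a median of -0.10.

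Of the 100 members, 3 were lower by at least 1 log2 unit relative to the median gene and 5 were higher, against 5.11% of all measured genes lower and 3.34% higher. Within the top 25% by level, which holds all 8 of these members, the shares over all genes were 11% and 9.28%. The counts are thus near or below the background. Against 4 months, set 4 had 5 members lower and 11 higher (6.75% and 4.56% of all genes), and set 5 had 5 lower and 13 higher (6.66% and 6.62%). Of the 2317 genes in the top 25% by level, 337 were lower and 221 higher in set 4, and 297 and 336 in set 5. For the 81 members among them the counts were 4 and 11 in each set. Between the 2 sets of 14 months, 8 members were lower and 10 higher in set 5 (4.45% and 6.87% of all genes). Of the 2317 genes, 217 were lower and 340 higher, and of the 81 members, 8 and 8. More members thus passed 1 log2 unit between the sets of 1 age, which hold fewer cells, than between the pooled ages.

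**Figure D3:**
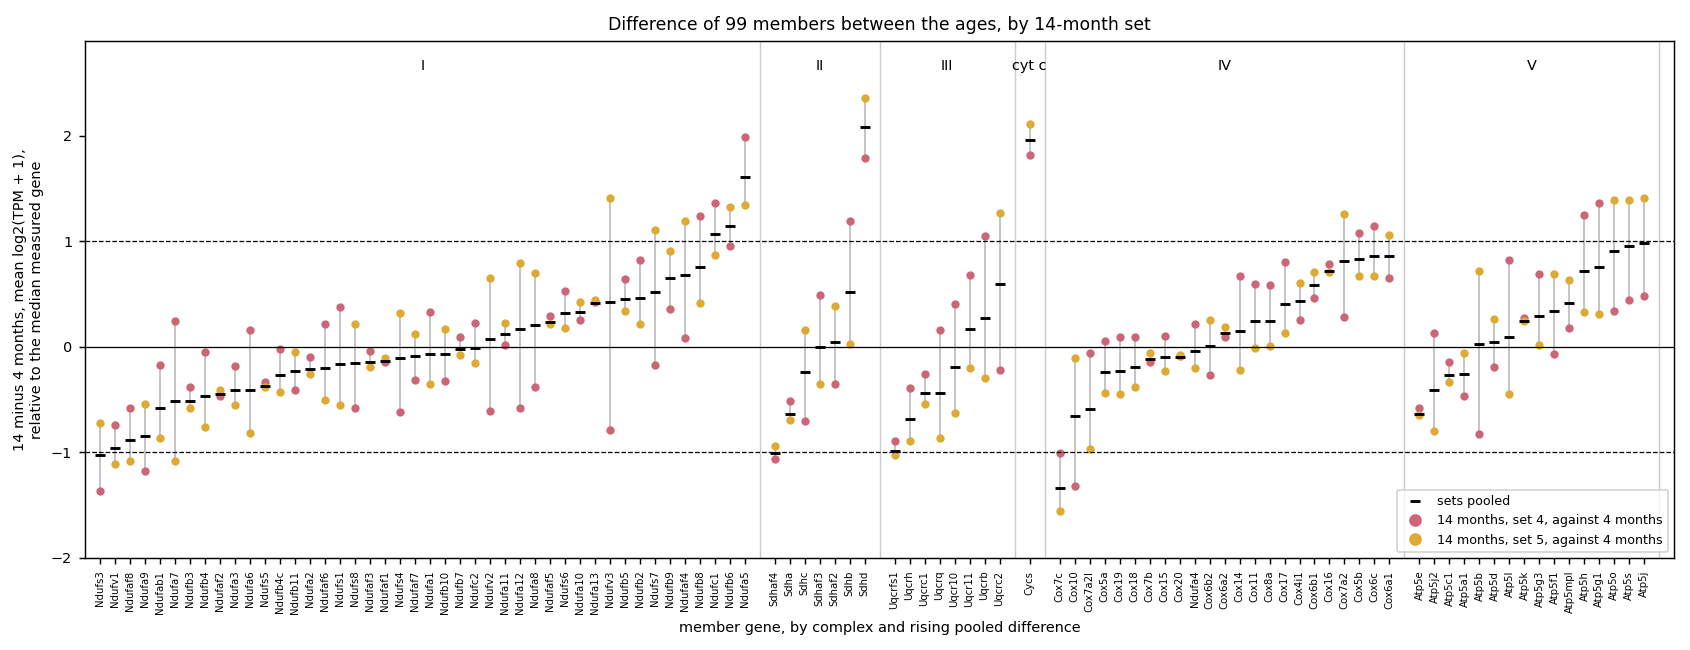
Difference between 14 and 4 months in mean log2(TPM + 1) relative to the median measured gene (vertical axis) for 99 of the 100 members (horizontal axis), by complex. Black dashes are the pooled sets, points set 4 and set 5, each against the same cells of 4 months, and dashed lines 1 log2 unit; 5 pooled values lie above the upper line, with Sdhd (2.09) and Cycs (1.96) farthest, and 3 below the lower, with Cox7c (-1.33) farthest.

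Cycs encodes cytochrome c, the mobile carrier between complexes III and IV, which also takes part in the start of apoptosis (GENCODE M21, chr6:50562563-50566538, minus strand). At 4 months its TPM ran from 0 to 269 with a median of 41.6, in set 4 from 0 to 1164 with a median of 180, and in set 5 from 0 to 1129 with a median of 137. The ranges overlapped, but the highest cells of both 14-month sets stood above every cell of 4 months. It was detected in 51 of 64 cells (79.7%, exact 95% interval 67.8 to 88.7), 24 of 29 (82.8%, 64.2 to 94.2) and 33 of 37 (89.2%, 74.6 to 97.0), so the difference lay in the level and less in the detection. Its relative difference was 1.96 pooled, 1.82 in set 4 and 2.11 in set 5.

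That difference depended on rows of near-identical sequence. A copy was counted where a transcript of another gene aligned to the member's with at least 95% identity over at least 200 bases. Cycs had 4 copies, among them Gm10053, annotated as protein coding, at 99.9% identity, and the pseudogene Gm10108 at 99.4%. Together the 4 copies averaged 430 TPM in the younger cells, 352 in set 4 and 409 in set 5, more than Cycs itself at 65.2, 234 and 237. Cycs and its copies summed to 495, 586 and 645 TPM, and to medians of 326, 299 and 505. In the median cell with any of these reads, Cycs held 13.3% of the sum at 4 months, 40.8% in set 4 and 35.2% in set 5. Summed with its copies, the relative difference was 0.80, under 1 log2 unit. Reads of such rows cannot be placed with certainty, so the level of Cycs alone is uncertain.

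Sdhd encodes the small membrane anchor of complex II (succinate dehydrogenase), the enzyme shared by the chain and the citric acid cycle (chr9:50596357-50603812, minus strand), and no copy was found for it. At 4 months its TPM ran from 0 to 1027 with a median of 37.1, in set 4 from 0 to 2466 with a median of 79.1, and in set 5 from 0 to 1762 with a median of 209. It was detected in 60.9% (39 of 64, exact 95% interval 47.9 to 72.9), 69.0% (20 of 29, 49.2 to 84.7) and 73.0% (27 of 37, 55.9 to 86.2) of cells. Among cells that had it, the medians were 128, 341 and 478 TPM. The relative difference was 2.09 pooled, 1.79 in set 4 and 2.35 in set 5.

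**Figure D4:**
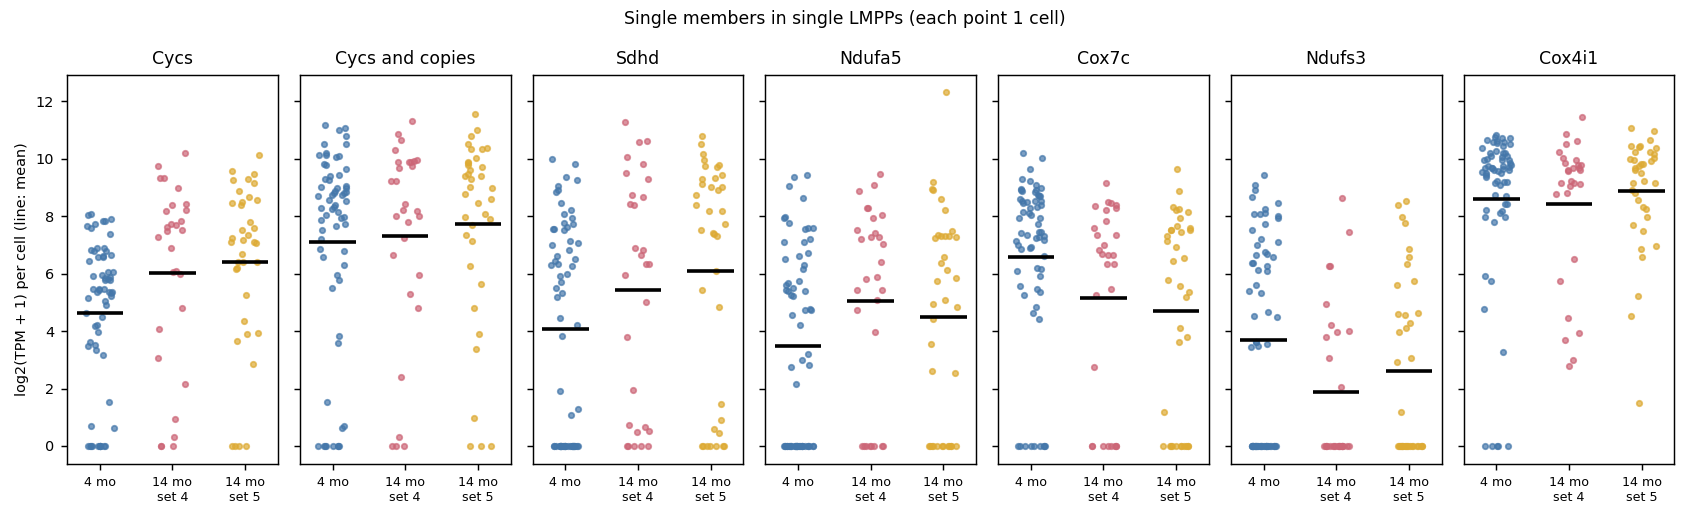
log2(TPM + 1) in each cell (vertical axis, 1 point a cell, line at the mean) by group for Cycs, Cycs summed with its 4 copies, Sdhd, Ndufa5, Cox7c, Ndufs3 and Cox4i1. The means of Cycs are 4.61, 6.01 and 6.39, those of Cycs with copies 7.10, 7.30 and 7.73, and all groups overlap in every panel.

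The pooled differences of the other complex II genes were all lower than that of Sdhd. Sdha, the flavoprotein that oxidises succinate, had a relative difference of -0.63, and its mean of 457 TPM in set 4 came from 1 cell at 11416 TPM; without that cell the mean was 65.3, against 111 TPM at 4 months and 94.6 in set 5. Sdhb, the iron-sulfur subunit, differed by 0.52, with 1.19 in set 4 and 0.03 in set 5. Sdhc, the other membrane anchor, differed by -0.24. Of the assembly factors, Sdhaf4, which aids the maturation of Sdha, had a relative difference of -1.01, detected in 59.4% of cells at 4 months, 34.5% in set 4 and 35.1% in set 5. Sdhaf2, which attaches the flavin to Sdha, differed by 0.04, and Sdhaf3 by -0.00.

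In complex I, the highest differences were those of Ndufa5, Ndufb6 and Ndufc1, all supernumerary subunits around the catalytic core. Ndufa5 had medians of 12.8 TPM at 4 months (highest 689), 58.0 in set 4 (highest 706) and 32.5 in set 5 (highest 5091), and a relative difference of 1.61. Its mean of 241 TPM in set 5 fell to 107 without the highest cell, against 77.3 at 4 months and 143 in set 4. Ndufb6 had medians of 46.4, 107 and 164 TPM and differed by 1.15, although it was detected in 67.2%, 62.1% and 64.9% of cells. Ndufc1 had medians of 29.6, 60.1 and 48.1 TPM and differed by 1.07. The groups overlapped for all 3 genes.

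The core subunits of complex I, some of which carry the flavin and the iron-sulfur clusters, had a pooled median of -0.15. Of the 7, 4 lay below the median gene. Each set alone had a lower median, -0.58 in set 4 with 5 below and -0.44 in set 5 with 4 below. Ndufs3, a core subunit of the arm that faces the matrix, was the lowest at -1.02: its median was 11.2 TPM at 4 months and 0 in both 14-month sets, with detection in 56.2%, 37.9% and 48.6% of cells. Ndufv1, which binds NADH and the flavin, differed by -0.96, with medians of 12.6, 0 and 0 TPM. Ndufs1 differed by -0.16, Ndufs8 by -0.15, Ndufv2 by 0.08 and Ndufs7 by 0.52. Ndufs7, the cluster-bearing subunit next to ubiquinone, shows the gap between the sets, with -0.18 in set 4 and 1.10 in set 5. The gap was wider for Ndufv3, an accessory subunit beside Ndufv1, with -0.79 in set 4 but 1.41 in set 5. Of the 8 assembly factors of complex I, Ndufaf8 was lowest at -0.88 and Ndufaf4 highest at 0.69.

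In complex III, Uqcrfs1 was lowest at -0.98, with medians of 28.2, 4.39 and 1.44 TPM in the same order of groups, and detection in 76.6%, 58.6% and 54.1% of cells. Uqcrh, the hinge protein that helps cytochrome c to dock, differed by -0.69, and Uqcrc1, a core scaffold subunit, by -0.44. Uqcrc2, the partner of Uqcrc1, was highest at 0.60, with -0.21 in set 4 and 1.27 in set 5. Uqcrb went the other way between the sets, with 1.05 in set 4 and -0.29 in set 5, and Uqcr11 differed by 0.17.

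In complex IV, Cox7c, a small membrane subunit, was lowest at -1.33. Its TPM ran from 0 to 1174 at 4 months with a median of 171, from 0 to 573 in set 4 with a median of 99.2, and from 0 to 799 in set 5 with a median of 53.3. It was detected in 85.9% of cells (55 of 64, exact 95% interval 75.0 to 93.4), 72.4% (52.8 to 87.3) and 70.3% (53.0 to 84.1), and its difference was -1.01 in set 4 and -1.56 in set 5. Cox10, which makes the heme A precursor, differed by -0.65 and Cox7a2l by -0.59. The highest were Cox6a1 (0.86), Cox6c (0.86) and Cox5b (0.84), with Cox4i1 at 0.43, Ndufa4 at -0.04 and Cox8a at 0.24.

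In complex V, Atp5j, a subunit of the peripheral stalk that holds the F1 head still, was highest at 0.98, with medians of 363, 461 and 517 TPM. Atp5s, a low gene detected in 19.2% of cells, followed at 0.96, and Atp5o, which joins the stalk to the head, at 0.91. The lowest were Atp5e (-0.63), the smallest subunit of the head, Atp5j2 (-0.41) of the membrane part and Atp5c1 (-0.27), the shaft that turns within the head. Atp5b differed by 0.03 pooled, made of -0.82 in set 4 and 0.72 in set 5. Of the c ring, Atp5g1 differed by 0.75 and Atp5g3 by 0.29. The pseudogene Gm10039, a copy of Atp5g1 at 99.8% identity, held 63.2, 144 and 320 TPM, and with it the difference of Atp5g1 was 1.14.

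Copies were not confined to these genes. Of the 100 members 25 had at least 1 near-identical copy, with 39 copy genes in all and the most, 6, for Atp5l, a membrane subunit of complex V. The copies of Atp5l held 336, 428 and 327 TPM, more than Atp5l itself at 273, 362 and 273 TPM. Its relative difference was 0.09 alone and 0.06 with the copies. The member Ndufb4c, a pseudogene, is a copy of Ndufb4 at 100% identity over 390 bases. It held 159, 244 and 124 TPM, against 60.8, 89.6 and 42.4 TPM for Ndufb4, so the split between the pair is uncertain. The median difference of the members moved by less than 0.2 when each was summed with its copies.

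Matching the cells on the number of genes detected gave another picture. When each 14-month cell was paired with a 4-month cell within 10% of its number of genes, 45 cells of each age remained, with medians of 3863 and 3712 genes detected. In these cells the 100 members had a median relative difference of 0.93, with 83 above the median gene, 47 higher by at least 1 log2 unit and 0 lower by as much. Over all genes measured there, 11% were higher and 6.03% lower by that much. Over the top 25% by level, the shares were 30.9% and 7.29% and the median was 0.51, against 1.13 for the 81 members among them and 0.00 for the other 19. Abundant genes in general thus lay above the median gene in the matched cells, and the abundant members farther than these genes as a whole. The 2 groups were not of equal level. At 4 months, over all kept cells, the median of the mean levels was 217 TPM for the 81 members and 107 TPM for the top 25% of genes. The part of level in this gap was not tested.

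**Figure D5:**
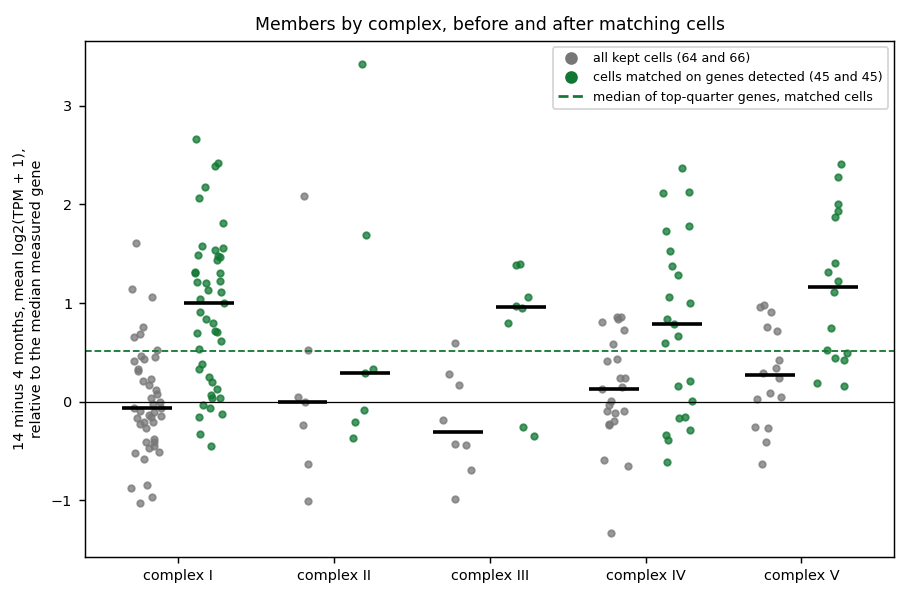
Difference between 14 and 4 months relative to the median measured gene (vertical axis, log2) for the members of each complex (horizontal axis), in all kept cells (64 and 66) and in cells matched on genes detected (45 and 45), with a line at each median. Medians of complexes I to V in matched cells are 1.00, 0.29, 0.96, 0.79 and 1.17, and the dashed line marks the genes of the top 25% at 0.51.

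By complex the matched medians were 1.00 for complex I (39 of 45 genes above), 0.29 for II (4 of 7), 0.96 for III (6 of 8), 0.79 for IV (17 of 23) and 1.17 for V (16 of 16). Sdhd stood at 3.42, Cycs, without its copies, at 3.08 and Ndufb9, a supernumerary subunit of complex I, at 2.66. Cox7c, Ndufs3 and Sdhaf4, the lowest members among all cells, stood at -0.16, -0.03 and -0.08. Matched 4-month cells detected a median of 65% of the members and held 2.61% of nuclear TPM in them, while matched 14-month cells detected 77% and held 3.20%. When the 16 cells short of nearly ubiquitous genes were left out before matching, 38 cells of each age remained, the members' median was 0.69, that of the top 25% of genes by level 0.37, and 36 members were higher by 1 log2 unit and 1 lower. Over all measured genes 11.4% were higher and 6.64% lower in these cells, and over the top 25% by level 28.4% and 9.19%. Matched cells are other cells, not only cells of like detection. Mitochondrial transcripts still differed in the matched cells, with medians of 13.3% of TPM at 4 months and 20.5% at 14 months; their part in the result was not tested.

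Genes that work with the members were taken from lists of their own. The 13 mitochondrially encoded chain genes had a pooled median of 0.20 (0.36 in set 4, -0.079 in set 5, and -0.13 with quantile normalization), from mt-Nd3, a subunit of complex I, at -2.49 to mt-Co3, a subunit of complex IV, at 1.26, and mt-Nd4l and mt-Nd6 were at -1.41 and -1.25. Of 29 other respiratory chain genes outside the name pattern, mostly assembly factors, 25 were measured with a median of 0.04, from Uqcc3 (-1.14), an assembly factor of complex III, to Coa7 (0.73), one of complex IV. Of the 7 genes for feeding electrons into the chain by other routes, 5 were measured. They ran from Gpd2 (-0.70), the mitochondrial glycerol phosphate dehydrogenase, to Etfa (0.28), a subunit of the electron transfer flavoprotein. Their median was -0.56. This median was -0.16 with columns of 500 or more genes, -0.18 with quantile normalization and -0.21 with pseudocount 10.

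The 6 genes for transport of ADP, ATP and phosphate had a median of 0.50, from the outer membrane channel Vdac2 (-0.88) to the ADP and ATP exchanger Slc25a5 (1.52), with Vdac3 at 1.32. The 13 citric acid cycle genes had a median of 0.01, from Suclg2 (-1.14) to Dld (1.19), and 6 of them lay below the median gene. In set 4 the median was -0.21, with 10 of 13 below, and in set 5 it was 0.14; it was -0.30 with medians over cells and 0.26 with quantile normalization. Of 16 regulators of mitochondrial biogenesis 14 were measured with a median of -0.17, from the mitochondrial RNA polymerase Polrmt (-0.59) to Tfb2m (0.96), a factor for its start of transcription. Nrf1 was at -0.34 and Gabpa at -0.30, both nearer 0 than 1 log2 unit.

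Between complexes, cells that gave more of their coding TPM to 1 complex did not always give more to another. Across the 64 cells of 4 months the rank correlation of the shares was 0.66 between complexes I and IV and 0.25 between III and V. In set 5 it was 0.22 between I and IV and 0.03 between III and V, and in set 4 it was 0.27 and 0.46. These values describe cells that share a fixed total and differ in detection, and with sparse values a weak correlation is no finding.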

How the data were processed

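RNA was measured in single LMPPs of mice aged 4 and 14 months. The deposited values are TPM, made by the authors, and each column sums to 1000000, so the depth of a cell is unknown. The tools and build named are RSEM 1.2.12, Bowtie2 2.2.0 and mm10, per the submitters' processing notes, and no source used here names the annotation. Ages came from the labels and sets from column names, and no column was left unused. Symbols were found for 37607 of 38924 row identifiers, and coordinates and gene types came from GENCODE M21.

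Here, columns with at least 1000 genes at a TPM of 1 were kept (38 of 168 were left out). Values were averaged as log2(TPM + 1) with pseudocount 1, which understates differences of low genes. A difference of 1 log2 unit was called. With 1 sample an age, cells are not replicates and no p-value was computed. Exact (Clopper-Pearson) 95% intervals and limits from 3 cells cover counting error only. Analyses used Python 3.11.15, numpy 2.4.6, pandas 2.3.3 and scipy 1.17.1. The formula for relative differences was repeated on simulated shifts, which checks its arithmetic and none of the results. Alternatives covered pseudocount, filters, scaling, averaging, cells, sets and copies. The members and lists were chosen with earlier results of these data known. The named genes were complex II, Cycs, core complex I, the c ring, isoform pairs, the extremes of level and difference in each complex, genes past 1 log2 unit or beside the 10% threshold, and the extremes of each list. Genes named beyond that rule, for sets, copies and matched cells, were chosen after their values were seen. One member is counted in every total but not reported here by name.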

Additional observations from a re-analysis of the deposited data

Results flagged for a closer look

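Signal also lay outside the main comparison. Of the 38 columns left out for showing under 1000 genes, 34 had at least 1 member at a TPM of 1 or more, with a median of 8 and at most 19 of the 100 members. Rows of near-identical sequence, which are no members, held mean TPM at 4 months of 430 for the copies of Cycs, 336 for those of Atp5l and 63.2 for the copy of Atp5g1.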

How the results depend on the processing

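The members' median of 0.02 stayed within 0.2 under 17 of 21 alternatives. It was 0.23 among genes detected in at least 80% of cells, -0.21 with no filter on low values, 0.95 in matched cells and 0.71 in matched cells without those short of nearly ubiquitous genes. The matched medians given here cover only members that pass the 10% filter among the cells used. Beside each count of members below stands, in parentheses, the share of all genes measured in that setting that passed 1 log2 unit the same way. The members lower, 3 as reported (5.11%), numbered 8 with pseudocount 0.1 (11.9%), 0 with pseudocount 10 (1.21%), 1 with columns of 2000 or more genes (4.64%), 1 with 500 or more (4.66%), 1 and 0 with filters of 30% and 80% (6.59% and 12.2%, with 31 members left at 80%), 7 with no filter (4.99%), 5 after rescaling over protein-coding nuclear genes (6.13%), 18 with medians over cells (16.9%), 0 in matched cells (6.03%) and 1 without the short cells (6.56%), 5 in set 4 (6.75%), 5 in set 5 (6.66%) and 5 with ratios of mean TPM (18.2%). The members higher, 5 as reported (3.34%), numbered 18 and 2 with pseudocounts 0.1 and 10 (10.6% and 0.561%), 16 with 2000 or more genes (4.06%), 2 with the 80% filter (11.2%), 3 with no filter (0.734%), 8 after coding rescaling (4.35%), 47 in matched cells (11%), 36 without the short cells (11.4%), 11 without cells of a high mitochondrial or single-gene share (3.93%), 11 in set 4 (4.56%) and 13 in set 5 (6.62%).

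Complex I (-0.07) was at 0.15 with 2000 or more genes, -0.35 with the 80% filter, -0.32 with no filter, -0.30 with medians, 0.17 with ratios of means, 1.02 in matched cells and 0.81 without the short cells. Complex II (-0.00) was at -0.23 with no filter, 0.29 and 0.39 in the matched settings, -0.21 without cells of a high mitochondrial or single-gene share, -0.35 in set 4 and 0.59 with ratios, and had no gene left at 80%. Complex III (-0.31) changed sign with 2000 or more genes (0.10), in both matched settings (0.96 and 0.67) and with ratios (0.25), and was at -0.075 with the 80% filter, -0.56 with no filter, -0.026 in set 4 and -0.58 in set 5. Complex IV (0.13) was at 0.38 and 0.49 with filters of 30% and 80%, -0.13 with no filter and 0.79 in matched cells. Complex V (0.27) changed sign with medians (-0.093) and was at 0.51 with pseudocount 0.1, 0.76 with 2000 or more genes, 0.041 with no filter, and 1.17 and 1.03 in the matched settings.

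Mitochondrially encoded genes (0.20) changed sign with 500 or more genes (-0.28), no filter (-0.053), quantile normalization (-0.13), medians (-0.058), set 5 alone (-0.079) and the matched settings (-0.34 and -0.19), electron feeders at 80% (0.11, 1 gene), and the transport genes with medians (-0.13). The members' share of TPM was 2.41%, 2.45% and 2.30% of all TPM, and set 4 cells detected 49% of members with 500 or more genes. Of the 8 members past 1 log2 unit, signs held in 160 of 161 pairs of gene and alternative. The exception was Sdhaf4 at 0.075 in matched cells without the short ones. These genes were picked by size and the alternatives reuse the same cells, so like signs are partly built in. Sdhd ranged from 1.40 to 3.91 and Cycs from 0.80 to 3.08. Values stayed past 1 log2 unit under 20 of 20 alternatives for Sdhd, 20 of 21 for Cycs and 19 of 20 for Ndufa5. For Ndufb6, Ndufc1 and Cox7c it was 15, 14 and 14 of 20, and for Ndufs3 and Sdhaf4 13 and 10 of 20. The causes were not tested. The alternatives that sum copies, take the median of the top 25% by level or leave out short cells were chosen after seeing the data. No paired analysis was possible because each age is 1 sample and columns carry no labelled cell number. Depth is unknown, so a gene at 0 may have been missed.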
